A study of Mus musculus with 3 samples.

Results

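The sodium pump (Na,K-ATPase) beta subunits are described here across 3 genotypes of mouse LSK cells. The genes are Atp1b1, Atp1b2 and Atp1b3, 3 of the 18194 genes named on the arrays, and together they carry 8 of the 45101 probe sets. The group was picked from measured values on these same arrays, because Atp1b2, which lies next to the p53 gene, is far lower on both p53-null arrays. The differences of Atp1b2 from WT are therefore a description of what chose it. LSK cells are the fraction of bone marrow without lineage markers and with Sca-1 and Kit, in which blood stem cells and early progenitors are found. There was 1 Affymetrix array for each genotype, namely wild type (WT), p53 -/- (p53 KO) and p53 -/- Mef -/- (DKO), so by their labels both knockout groups lack p53 and DKO alone lacks Mef as well. Age, strain, the alleles used, and the number of mice behind an array are not given in the sources used here. With no replicates no difference has an error, and none was tested. Both comparisons with WT use the same WT array, so they are not independent, and a value particular to that array cannot be told apart from the genotype.

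The sodium pump uses ATP to move sodium out of the cell and potassium in, which keeps the ion gradients on which cell volume, membrane potential and many other transporters depend. Its alpha subunit binds the ions and splits ATP. The beta subunit is a glycoprotein that crosses the membrane once, is needed for the alpha subunit to fold and reach the cell surface, and can also hold neighbouring cells together, while small FXYD proteins tune the pump. The beta 1 form, from Atp1b1, is widespread and abundant in epithelia, the beta 2 form, from Atp1b2, is known as an adhesion molecule on glia, and the beta 3 form, from Atp1b3, is found in many tissues and on the surface of white blood cells.

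The median probe set had a signal of 98.0 in WT, 105 in p53 KO and 129 in DKO. Values below the median of all signals (110.4) were raised to that floor before log2 was taken, and a gene that reached the floor on at least 1 array counted as measured, which 12597 genes did. All 8 of the LSK genes on a fixed list that were analysed, among them Kit, Cd34 and Flt3, were at or over the floor on every array. Ly6a, the Sca-1 gene, was on the list but not analysed. The levels of these genes were not alike. None of the 8 was 2-fold different for p53 KO relative to WT, and 2 were at least 2-fold higher for DKO relative to WT. In the order WT, p53 KO and DKO, Cd34 was at 2230, 2442 and 6633, Flt3 at 2387, 1492 and 4728, and Kit at 4996, 2522 and 4873. Of measured genes, 3.19% dropped to 0.5 times WT or less on p53 KO and 6.51% reached 2-fold or more. The same shares were 3.1% and 5.22% in DKO cells set against WT. They were 5.93% and 4.1% in DKO cells set against p53 KO. Higher genes made up 62.8% of those at least 2-fold different for DKO relative to WT, but 49.4% after quantile normalization and 47.0% after cyclic loess. For DKO relative to p53 KO they made up 40.9%, and 26.5% after cyclic loess.

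Atp1b2 was bright on the WT array and close to the floor on both p53-null arrays. Its brighter probe set, 1435148_at, had a signal of 3537 on WT, 170 on p53 KO and 227 on DKO. The log2 difference was -4.38 for p53 KO relative to WT, which is 20.8-fold, and -3.96 for DKO relative to WT, which is 15.6-fold. Between the p53-null arrays the difference was 0.42, inside the 5th to 95th percentiles of measured genes in that comparison, -1.11 to 0.95. WT was thus the high array and both p53-null arrays were low. In bulk cells, fewer cells of a type and less RNA per cell cannot be told apart.

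The other probe set of Atp1b2, 1422009_at, did not share this pattern. Its signals were 121 on WT, 134 on p53 KO and 137 on DKO, just over the floor on each array, with log2 differences from WT of 0.14 and 0.18. The large difference therefore rests on 1 of 2 probe sets. With the mean of both, Atp1b2 was at -2.12 for p53 KO relative to WT and -1.89 for DKO relative to WT. With the floor at the 75th percentile of signals (448.4), which both p53-null values lie below, the difference from WT was -2.98 in each comparison, a bound. The sources used here do not say which part of the transcript either probe set reads. A small difference at a further probe set was also seen at other genes with a large fall. There were 18 genes, Atp1b2 among them, that had a WT signal of at least 448.4 and were at least 4-fold lower on p53 KO. Of these, 9 had a further probe set that reached the floor on at least 1 array. The brightest such set was within 0.5 of no difference in 3 of the 9, of which Atp1b2 was 1, and at least 2-fold lower in 4. For DKO relative to WT there were 55 such genes and 26 with a further probe set. Of the 26, 9 were within 0.5 of no difference, Atp1b2 again among them, and 7 at least 2-fold lower. A further probe set near or below the floor on WT cannot show a large fall, whatever the transcript does. That holds for 1422009_at, at 121 on WT, so these counts do not tell disagreement from lack of signal.

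**Figure D1:**
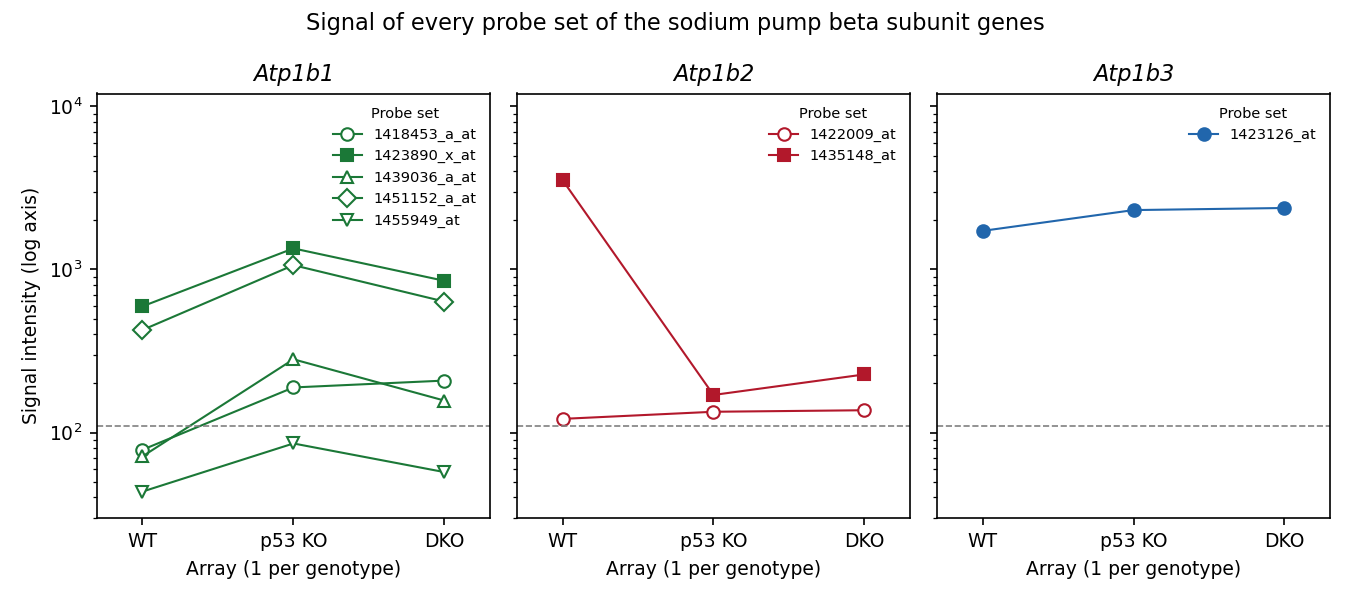
Signal intensity (log axis) of every probe set of Atp1b1, Atp1b2 and Atp1b3 for WT, p53 KO and DKO, 1 array per genotype, with the probe set that represents each gene filled, the others open, and the floor of 110.4 as a dashed line. The bright Atp1b2 probe set drops from 3537 on WT to 170 and 227, its other probe set stays between 121 and 137, and the 4 Atp1b1 probe sets that reach the floor are lowest on WT.

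No probe set of the arrays, named or not, had a more negative difference than 1435148_at for p53 KO relative to WT or for DKO relative to WT. With the floor, a fall as large as that of Atp1b2 could be seen for 3450 probe sets on p53 KO and 4492 on DKO, those bright enough on WT. The next lowest gene was Zg16 at -3.28 on p53 KO and Crip2 at -3.08 on DKO. The suffix of the Zg16 probe set marks probes that may also match other transcripts. There were 3317 probe sets within 2-fold of the WT signal of 1435148_at. Their median difference was -0.15 on p53 KO and -0.16 on DKO. Of these 3317, Atp1b2 included, 2 were at least 8-fold lower on p53 KO and 1, Atp1b2 itself, on DKO. Atp1b2 was picked for its fall on these same arrays, so its place in these rankings follows from the choice and is a description.

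Atp1b1 ran the other way, with its lowest signals on the WT array. The probe set that represents it, 1423890_x_at, gave 594 on WT, 1347 on p53 KO and 852 on DKO. The log2 difference was 1.18 for p53 KO relative to WT, 0.52 for DKO relative to WT and -0.66 for DKO relative to p53 KO. The p53 KO array was thus the highest for this probe set, and it alone was over 2-fold from WT. The suffix of this probe set marks probes that may also match other transcripts.

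Of the other 4 probe sets of Atp1b1, 3 reached the floor, and in these WT was below p53 KO as well. The next brightest, 1451152_a_at, is annotated with the same source sequence as 1423890_x_at and is not independent of it. It gave 426 on WT, 1063 on p53 KO and 636 on DKO, or 1.32 and 0.58 against WT. A dimmer pair started below the floor on WT. The signals of 1439036_a_at were 71.4, 281 and 157 in the order WT, p53 KO and DKO, at least 1.35 and 0.51 over WT. For 1418453_a_at they were 78.5, 189 and 208, at least 0.78 and 0.92 over WT, and this was the probe set on which DKO was not below p53 KO. The signals of 1455949_at were 43.5, 85.7 and 57.2, below the floor on every array, where values have no order. The fold over WT is measured on both sides only for 1423890_x_at and 1451152_a_at, at 2.27 and 2.50 on p53 KO and 1.43 and 1.49 on DKO. With the mean over all 5 and the floor in place, Atp1b1 was at 0.93 for p53 KO relative to WT, which is under 2-fold.

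Atp1b3 was well over the floor on every array and differed from WT by less than 2-fold. Its only probe set, 1423126_at, gave 1725 on WT, 2314 on p53 KO and 2383 on DKO. The log2 difference was 0.42 for p53 KO relative to WT, 0.47 for DKO relative to WT and 0.04 for DKO relative to p53 KO. Of measured genes, 79.1% were lower than Atp1b3 in the first of these comparisons and 77.4% in the second, so it lay well inside the spread of all genes. Both p53-null arrays were thus slightly over WT and close to each other.

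Over the 3 beta subunit genes, p53 KO had 1 at least 2-fold below WT (Atp1b2) and 1 at least 2-fold above (Atp1b1). DKO had 1 below WT and 0 above. By the same measure no member differed between the p53-null arrays. The only gene behind the count of lower members is Atp1b2, which chose the group, so nothing is read from these counts against the background shares given above. Signals of different probe sets depend on their probes, so levels of the 3 genes are not set against each other.

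**Figure D2:**
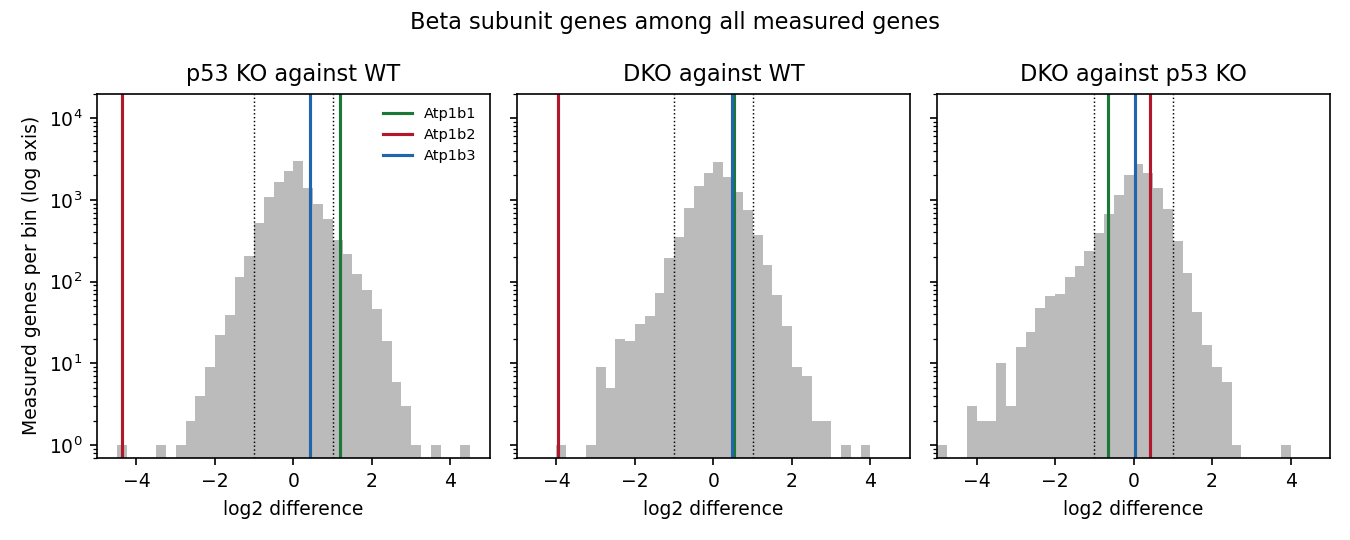
Number of measured genes (log axis) per bin of 0.25 in log2 difference, for each comparison, with the 3 beta subunit genes as coloured lines and 2-fold as dotted lines. Atp1b2 lies at -4.38 and -3.96, beyond all other genes on the low side in both comparisons with WT, and at 0.42 in the comparison of p53-null arrays. It was picked for this fall on the same arrays. Atp1b3 lies within the bulk in each comparison. Atp1b1 lies at 1.18 for p53 KO relative to WT, just over the 95th percentile of measured genes (1.14), and within the bulk in the others. For DKO relative to WT, Atp1b1 and Atp1b3 (0.52 and 0.47) are nearly superposed.

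Among the partners of the beta subunits, Fxyd5 stood out. It encodes dysadherin, an FXYD protein that binds the pump and is known to weaken cell adhesion. Its signals were 1271 on WT, 3542 on p53 KO and 3235 on DKO, with log2 differences of 1.48 and 1.35 from WT and -0.13 between the p53-null arrays. WT was thus the lowest array for Fxyd5, where it was the highest for Atp1b2. Of the 7 FXYD genes 3 were measured, and Fxyd5 was the only one at least 2-fold different in any comparison. Fxyd4 was near the floor at 110, 141 and 151, and Fxyd1, known as phospholemman, reached the floor on DKO alone, at 35.7, 82.8 and 134. Fxyd2, Fxyd3, Fxyd6 and Fxyd7 stayed below the floor on all 3 arrays.

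Atp1a4, an alpha subunit known from sperm, had signals of 11.8, 12.5 and 44.5, below the floor throughout. Atp1b4, a muscle relative of the beta subunits, was below the floor on every array, at 5.45 on WT, 19.5 on p53 KO and 31.3 on DKO.

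The related proton pump of the stomach gave low signals. Its alpha subunit gene Atp4a was at 261 on WT, 116 on p53 KO and 130 on DKO, or -1.17 and -1.01 against WT. Its beta subunit gene Atp4b was at 129, 96.6 and 283, or 1.13 for DKO relative to WT. These subunits thus moved apart on DKO, both within a few fold of the floor. Atp12a, the alpha subunit of the other proton pump, stayed below the floor.

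Among other ion transport genes, Sgk1 differed most between p53 KO and the other arrays. Of 6 measured calcium pumps none was 2-fold different in any comparison, and their median was 0.66 for p53 KO relative to WT and 0.55 for DKO relative to WT, beside 0.00 and 0.07 over all measured genes. Atp2b1, a calcium pump of the plasma membrane, was at 518, 1034 and 837 on WT, p53 KO and DKO, and Atp2a3, a calcium pump of the endoplasmic reticulum in blood cells, at 851, 1540 and 1323. Of 9 measured genes of sodium and potassium transport and its control, 2 were at least 2-fold higher on p53 KO. These were Sgk1, a kinase that raises sodium transport, at 759 on WT, 2328 on p53 KO and 634 on DKO, and Pxk, known as a modulator of the sodium pump, at 314, 648 and 372. On DKO 1 was below WT by 2-fold or more, the potassium chloride cotransporter gene Slc12a4, at 288, 205 and 138. By the same measure, 6.51% of all measured genes were higher on p53 KO and 3.1% lower on DKO. In both Sgk1 and Pxk the p53 KO array alone was high.

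Genes on either side of Atp1b2 were also examined, but most were too dim on WT to show a fall like its own. In the order of the RefSeq gene table (assembly GRCm38.p6, used for names and order only), 8 genes were taken on each side, without the p53 gene, which was not analysed here, and without clone and predicted names. Of these 16, 13 had a probe set and 12 were measured. With the floor, none of the 12 could show a fall as large as that of Atp1b2 on p53 KO, 2 (Naa38 and Kdm6b) could on DKO, and 6 could show a 2-fold fall. On p53 KO none of the 12 was at least 2-fold lower than on WT and 1 was higher, Cd68, a macrophage protein gene. On DKO 1 was at least 2-fold lower, Kdm6b, a histone demethylase gene, and none was higher. Over all measured genes the shares lower and higher were 3.19% and 6.51% on p53 KO, and 3.1% and 5.22% on DKO. The median of the 12 was 0.02 on p53 KO and -0.24 on DKO.

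The nearest measured neighbours had low signals. Wrap53, which encodes a telomerase and small RNA binding protein and lies beyond the p53 gene, had signals of 254 on WT, 306 on p53 KO and 272 on DKO. Its other probe set gave 271, 271 and 257. Shbg, a steroid carrier gene on the other side, was near the floor at 130, 134 and 75.4, and Sat2, an acetyltransferase gene, at 136 and 149 on WT and p53 KO and below the floor on DKO. Fxr2, an RNA-binding protein gene, was at 199, 42.3 and 138, which with the floor gives a bound of -0.85 on p53 KO. Further out, Naa38, part of an acetyltransferase that acts on nascent proteins, was at 2184, 1410 and 1447, or -0.63 and -0.59, lower on both p53-null arrays but far less than Atp1b2. Kdm6b was at 2141, 1441 and 1023, or -0.57 and -1.07, while its other probe sets were at -0.14 and 0.29 on p53 KO and at 0.23 and -0.07 on DKO. Cd68 was at 243, 673 and 216, or 1.47 on p53 KO and -0.17 on DKO. The bright neighbours Naa38 and Kdm6b are thus the ones in which a large fall could be seen, down to -4.31 and -4.28.

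**Figure D3:**
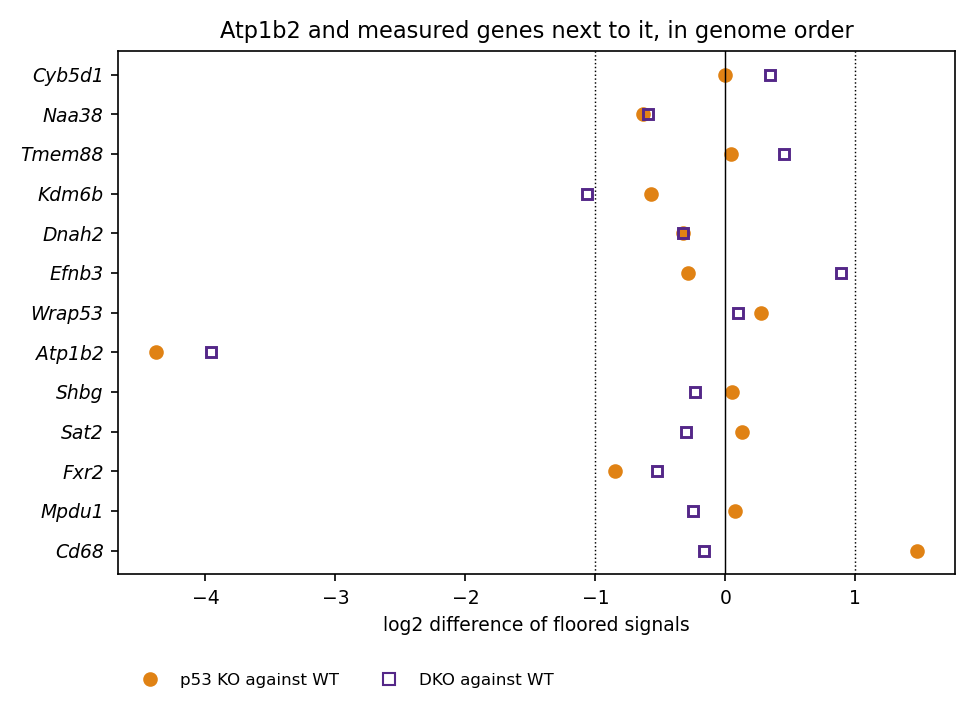
Log2 difference of floored signals from WT for Atp1b2 and the 12 measured genes around it, in genome order from top to bottom, with filled circles for p53 KO, open squares for DKO and dotted lines at 2-fold. Atp1b2 lies at -4.38 and -3.96, and the others between -0.85 and 1.47 on p53 KO and between -1.07 and 0.89 on DKO, where 6 of the 12 were too dim on WT to reach a 2-fold fall.

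Markers of other blood cells differed between the arrays too. Signals of the 22 erythroid genes analysed summed to 161113 on WT, 213233 on p53 KO and 53574 on DKO. Of 21 measured, p53 KO had 7 at 2-fold or more above WT and 2, Sphk1 and Car1, at 2-fold or more below, with a median of 0.73 and a range from -1.72 to 2.68. On DKO 16 were at least 2-fold lower and none was higher, with a median of -1.56 and a range from -2.78 to -0.33. Of all measured genes, 6.51% were at least 2-fold higher and 3.19% lower on p53 KO, and 5.22% and 3.1% on DKO. The summed level was highest on p53 KO and lowest on DKO. The order WT, p53 KO, DKO from high to low was that of 7 of the 21, namely Klf1, Ermap, Aqp1, Gata1, Car1, Sphk1 and Epor. Sphk1, a lipid kinase gene, was at 4098, 1240 and 686 on WT, p53 KO and DKO, and Car1, the carbonic anhydrase of red cells, was at 25815, 9638 and 5778. Alas2, which starts haem synthesis, had its highest signal on p53 KO, at 1787, 11459 and 1091. The part of these differences in the result for Atp1b2 was not tested.

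**Figure D4:**
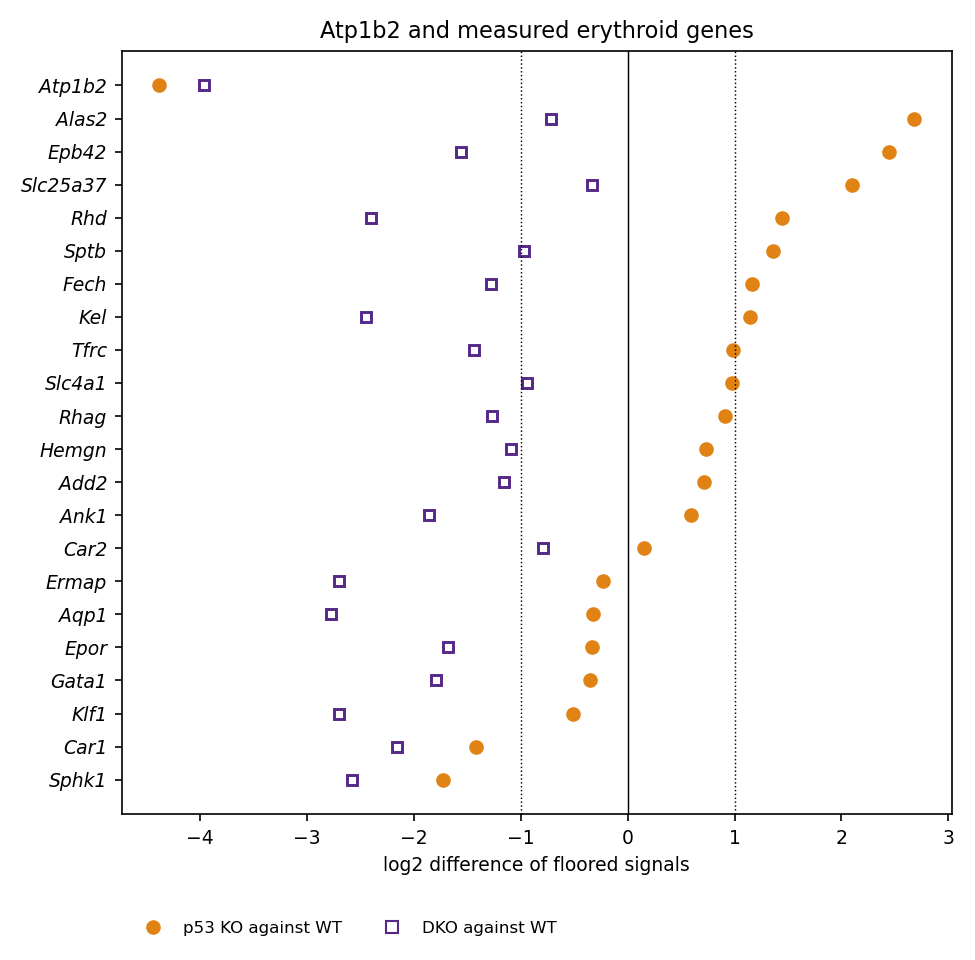
Log2 difference of floored signals from WT for Atp1b2 and the 21 measured erythroid genes, ordered by the difference on p53 KO, with filled circles for p53 KO, open squares for DKO and dotted lines at 2-fold. Erythroid genes range from -1.72 to 2.68 on p53 KO and lie between -2.78 and -0.33 on DKO. Atp1b2, picked for its fall, is the lowest of all measured genes in both comparisons, and so lies below these by choice.

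Summed signals of 3 other lists of blood cell markers were highest on p53 KO. Granulocyte and monocyte genes summed to 104101 on WT, 200792 on p53 KO and 114745 on DKO over 14 genes. On p53 KO 8 of the 14 were at 2-fold or more above WT, beside 6.51% of all measured genes. B and T cell genes summed to 1673, 4659 and 2013 over 10 genes, and megakaryocyte genes to 5042, 13939 and 8592 over 9. These sums were lowest on WT, as Atp1b1 was, but the median signal was lowest on DKO for granulocyte and monocyte genes (4956, 10358 and 4185) and for B and T cell genes (148, 251 and 104). The part of these cells in the result for Atp1b1 was not tested. Glial and neuronal genes, relevant because beta 2 is known from glia, summed to 3063, 2806 and 2928 over 11 genes. Most of that was Mbp, which blood cells also transcribe, at 2586, 2190 and 2126. Of the 11, 3 were at or over the floor on WT, 2 on p53 KO and 4 on DKO. Among astrocyte markers, Gfap was at 22.3, 78.4 and 204, over the floor on DKO alone. Another Gfap probe set was at 49.5, 223 and 5.98, over the floor on p53 KO alone, and the remaining one stayed below it. Aqp4, also an astrocyte marker, was at 115, 73.3 and 74.7, over the floor on WT alone. The part of such cells in the result for Atp1b2 was not tested.

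Genes with the pattern most like that of Atp1b2 were sought among 7874 measured genes whose brightest array was at least 448.4, by the distance between log2 signals centred on their mean over the 3 arrays. The nearest was Zg16, a lectin gene, at 2302 on WT, 237 on p53 KO and 420 on DKO and a distance of 1.10 on the log2 scale. Mt2, a metallothionein gene, followed at 5473, 795 and 1041 (1.29), and Hpn, a serine protease gene, at 806, 123 and 162 (1.35). Next were Pvt1, a noncoding RNA gene (1.46), Nme1, a nucleoside diphosphate kinase gene (1.51), Epdr1 (1.59), the matrix protease gene Mmp14 (1.61) and Ccdc68 (1.67). The probe sets of Zg16 and Nme1 have the suffix of probes that may also match other transcripts. All 8 genes were high on WT and low on both p53-null arrays, which the search by likeness to Atp1b2 fixed in advance. Atp1b1 had nearer matches. The 3 nearest were Timp2, an inhibitor of matrix proteases, at 498, 1127 and 713 (0.0016), D5Ertd579e (0.0060) and Plaur, the urokinase receptor gene, at 307, 692 and 447 (0.023). With only 3 arrays many genes can share an order, and the likeness is a description.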

How the data were processed

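The authors deposited 1 table of probe set signal intensities on a linear scale for 3 arrays of LSK cells, WT, p53 KO and DKO. GCOS and MAS5 are named, without versions, per the submitters' processing notes. The deposited intensities shared a 2% trimmed mean of 500, as after global scaling. Detection calls were not used here. Number of arrays, 1 per genotype, limits the precision, and no error can be given.

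Probe sets were named by the platform annotation, with symbols updated through the Entrez ID (34754 probe sets). Of the probe sets, 34958 had 1 gene symbol, 932 several and 9211 none. The brightest probe set by mean signal, among those naming 1 gene, represented the gene. Signals under the median of all signals (110.4) were set to that floor, and differences are of log2 values. Where 1 array of a comparison is below the floor, the difference is a bound. Called means at least 2-fold.

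Genes named in the text are the members, all related pump genes, up to 4 of each further list with large differences, 8 neighbours on each side of Atp1b2, and the 8 genes most like Atp1b2 and 3 most like Atp1b1. Car1, Gata1 and Epor were named after their values were seen. The members and lists were chosen with earlier results of these data known. The probe set comparison at other genes, the comparison at similar signal and the falls that the floor lets be seen were added after the data were seen. Alternatives were rescaling, quantile normalization, cyclic loess with 3 iterations, floors at the 25th and 75th percentiles, a pseudocount of 32, other probe set rules and other fold thresholds. The calculation was tested on simulated data. Python 3.11.15, pandas 2.3.3 and limma 3.58.1 were used.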

Additional observations from a re-analysis of the deposited data

How the results depend on the processing

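Atp1b2 stayed at least 2-fold below WT under all 8 alternatives, but not all of them could move its values. It lay between -4.38 and -2.12 on p53 KO and between -4.09 and -1.89 on DKO. The smallest size in each came from the mean of its probe sets. Rescaling, the lower floor and probe sets unique to a transcript returned the main values of -4.38 and -3.96. The arrays already shared a trimmed mean, its signals lay over that floor, and its probe set was already of that kind. Atp1b3 stayed under 2-fold under all 8, between 0.42 and 0.49 on p53 KO and between 0.46 and 0.55 on DKO. Rescaling, both floors and both probe set rules could not move its main values of 0.42 and 0.47. Atp1b1 on p53 KO ranged from 0.93, with the mean over all probe sets and so under 2-fold, to 1.21. Rescaling and both floors could not move it from 1.18. With probe sets unique to a transcript it has no value, since the one left is below the floor on every array. Between the p53-null arrays no member reached 2-fold under any alternative. Atp1b2 ranged there from 0.00, with the higher floor that both its signals lie below, to 0.42.

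Counts of all genes depended on the floor, the threshold and the probe set rule. Counts lower and higher are given in the order p53 KO relative to WT, DKO relative to WT and DKO relative to p53 KO. With the floor at the 25th percentile they were 895 and 1531, 755 and 1861, and 1200 and 1553. Raising the floor to the 75th percentile gave 234 and 417, 233 and 202, and 465 and 159. With the mean over all probe sets they were 245 and 518, 238 and 340, and 495 and 259. At 1.5-fold they were 1571 and 1936, 1199 and 2157, and 1532 and 2140, and at 3-fold 64 and 230, 106 and 95, and 314 and 54. With cyclic loess, 432 genes were higher for DKO relative to WT and 317 for DKO relative to p53 KO, against 657 and 517. The cause was not tested. No paired analysis was possible because there was 1 array per genotype. Signals near the floor limit what can be seen of Atp1b2 on the p53-null arrays and of its other probe set on all 3.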
